A study of Mus musculus with 2 samples.

Results

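Splice junctions of the alpha- and beta-globin loci were examined in RNA sequencing of mouse fetal liver. A junction is the pair of positions that a read joins across a gap in the genome, and most such gaps are introns. The members are all listed junctions with both ends inside mm9 chr11:32170000-32205000, the alpha-globin locus, or chr7:110950000-111010000, the beta-globin locus. They number 21091 of the 1024689 junctions listed for the series, which is 2.06%, with 10675 in the alpha and 10416 in the beta locus. The RNA was polyadenylated, longer than 200 nucleotides and taken from liver of C57BL/6J embryos at day 14 of gestation, with male and female littermates pooled. The series holds 1 group of 2 libraries sequenced as stranded paired-end reads, with no treatment and no second condition. The labels call them biological replicates but give both the same donor entry, so differences between them may be technical. The p-values below compare 1 library with 1 library, cover counting error only and measure no spread between libraries.

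Haemoglobin is a tetramer of alpha-like and beta-like chains. The genes of each family lie side by side, share the same layout of 3 exons and 2 introns, and are switched in development. Primitive red cells of the yolk sac use the embryonic genes Hba-x, Hbb-y and Hbb-bh1, and definitive red cells made in the fetal liver use Hba-a1, Hba-a2, Hbb-bs and Hbb-bt, called adult genes here. Hbq1a and Hbq1b are theta-like genes of the alpha locus, and Hbb-bh3 is a beta-like pseudogene. Splicing usually removes introns that begin with GT, at the donor site, and end with AG, at the acceptor site. Because the adult genes of each locus are near-copies, a short read from one can often be laid on the other.

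The sequences around the exon joins show how alike these genes are, and most of the reads described here cross them. The joins of exons 2 and 3 follow, with exon 3 in capitals, from GENCODE M21 transcripts of GRCm38, 5′ to 3′ in the direction of transcription (chromosome 11, plus strand, for Hba genes and chromosome 7, minus strand, for Hbb genes).
Hba-a1: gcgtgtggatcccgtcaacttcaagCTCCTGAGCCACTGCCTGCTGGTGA
Hba-a2: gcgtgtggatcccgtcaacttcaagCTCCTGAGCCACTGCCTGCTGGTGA
Hba-x: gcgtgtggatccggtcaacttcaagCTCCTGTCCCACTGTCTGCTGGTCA
Hbb-bs: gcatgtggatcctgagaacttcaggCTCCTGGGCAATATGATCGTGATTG
Hbb-bt: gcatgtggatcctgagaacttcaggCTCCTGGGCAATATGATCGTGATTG
Hbb-bh1: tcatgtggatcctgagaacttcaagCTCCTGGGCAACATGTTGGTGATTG
Hbb-y: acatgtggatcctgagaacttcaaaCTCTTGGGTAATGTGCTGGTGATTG
Exon 2 was identical between Hba-a1 and Hba-a2 over 205 bases and between Hbb-bs and Hbb-bt over 223 bases. Compared position by position from the exon border, exon 3 differed at 1 of 203 bases in the alpha pair and at 86 of 260 in the beta pair. None of these differences lay in the bases shown here. Inserted or missing bases were not aligned, so the 86 may overstate how unlike the beta exons are. Exon 1 was identical in the alpha pair over the 130 bases compared and differed at 9 of 145 in the beta pair. Hba-x matched Hba-a1 over the last 12 bases of exon 2 and the first 6 of exon 3.

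The junction list gives 2 read counts for each junction, R1 and R2, read here as the 2 replicates. It does not say which labelled library each is, so the names R1 and R2 are kept. All listed junctions together held 80752918 reads in R1 and 114217023 in R2. The globin loci took 45.5% of these reads in R1 and 38.4% in R2, a mean of 42.0% ± 5.04 (SD, n = 2). Junctions of the near-copy adult genes were often listed at several placements with equal reads, as described further on. If a read was counted at each, these shares are too high. Reads summed over exonic junctions of the adult genes were 2.87 times those of the best placements in the alpha pair and 2.58 times in the beta pair. Intervals below are exact Clopper-Pearson 95% intervals and, like the limits for 0 counts, cover counting error only. In the tables of the labelled libraries, quantified on mm10, 7 of 7 measured red-cell marker genes and 6 of 6 hepatocyte markers were above 1 TPM in both libraries, while 2 of 5 skeletal muscle markers were. The summed muscle level was 54.8 TPM in labelled replicate 1 and 3.22 in replicate 2, and its part in the results here was not tested.

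The members fall into 5 classes of very unequal weight. The authors' flag A marks 22 junctions as annotated, 11 in each locus, and these held 67.7% of the loci's reads in both R1 and R2. A further 12433 junctions joined 2 different globin genes in the direction of transcription and held 32.0% in both libraries. Another 7848 non-annotated junctions had both ends in the same gene, but held only 0.304% of reads in R1 and 0.311% in R2. The remaining 651 had an end outside the globin genes and 137 lay on the opposite strand, with 4394 and 271 reads in all. Reads were concentrated on few junctions: the 6 most-read took 99.3% of the alpha and 98.7% of the beta locus. The median member had 2 reads, and 41.4% of the non-annotated members had 1 read, against 70.1% of the non-annotated junctions in the rest of the list.

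Non-annotated junctions of the loci rarely had splice-site letters at their ends. The authors' flag C was 1 for 4.48% of them, against 27.6% in the rest of the list. In the 17 comparator genes described further on it ran from 6.90% in Ftl1 to 27.3% in Gata1, with 8.35% in Alb. For 15332 junctions within and between the adult genes the 2 bases at each side of the gap could be read from the exon sequence. Flag C was 1 for all 417 of these that had GT and AG, and for none of the other 14915, among them 74 with GC and AG. Recurrence followed read number: of the non-annotated members with 2 reads, 16.9% had a read in each library, against 17.3% in the rest of the list. The share rose to 75.5% at 6 to 10 reads, against 79.6% in the rest of the list. Above 100 reads it was 755 of 755 junctions, against 3545 of 3547. In all, 6686 members had reads in both libraries, 31.7% against 26.4% of all listed junctions.

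The annotated splices of the adult genes were 4 of the 6 most-read junctions of each locus, beside the 2 joins between these genes described further on. Intron 1 of Hba-a1 (mm9 chr11:32183802-32183923) had 2048573 reads in R1 and 2434522 in R2. Intron 1 of Hba-a2 (chr11:32196619-32196740) had 2035753 and 2421614, slightly fewer than Hba-a1 in each library. Intron 2 of Hba-a1 (chr11:32184129-32184262) had 4418569 and 5066315 reads, and that of Hba-a2 (chr11:32196946-32197079) had 4054205 and 4685911. The counts of the alpha genes were nearly level. If a read was counted at both near-copies, the splice counts cannot rank the genes of the alpha or the beta pair. The mm10 tables, an unlike measure, gave Hba-a2 191317 ± 16054 TPM and Hba-a1 50638 ± 7279 TPM (SD, n = 2). In the beta locus, intron 1 of Hbb-bt (chr7:110962176-110962291) had 2695557 and 3206980 reads and that of Hbb-bs (chr7:110976185-110976297) had 2214051 and 2620054. The order turned around for intron 2, with 3264607 and 4059973 reads on Hbb-bt (chr7:110961299-110961952) and 4132634 and 5172124 on Hbb-bs (chr7:110975308-110975961). The mm10 tables placed Hbb-bs (141824 ± 5592 TPM) above Hbb-bt (78305 ± 4900 TPM).

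The embryonic genes were spliced at far lower levels. Hbb-y, the epsilon-like gene of the yolk sac, had 3314 reads in R1 and 3341 in R2 on intron 1 (chr7:111001485-111001574) and 12716 and 11211 on intron 2 (chr7:111000517-111001261). Hbb-bh1 had 1613 and 2152 reads on intron 1 (chr7:110991428-110991532) and 2581 and 3541 on intron 2 (chr7:110990395-110991204). Hba-x, the zeta-like gene, had 442 and 559 reads on intron 1 (chr11:32176759-32177568) and 696 and 763 on intron 2 (chr11:32177774-32177879). Hbb-y was the highest of the 3 in each library and Hba-x the lowest on both introns. Of all annotated globin splice reads these genes held 0.0858% in R1 (interval 0.0847 to 0.0870) and 0.0726% in R2 (0.0717 to 0.0736). Within the beta locus Hbb-y and Hbb-bh1 together made 0.149% ± 0.0211 (SD, n = 2) of the annotated splice reads, beside 0.282% ± 0.0332 of beta-globin TPM in the mm10 tables. Hba-x made 0.00905% of the alpha splice reads and 0.0120% of alpha-globin TPM. Splice reads and TPM are unlike measures. The adult splices may count a read at both near-copies, which would make these embryonic shares of splice reads too low. Its part in the differences from TPM was not tested.

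The other genes ranged from Hbq1b, with reads near those of Hbb-bh1, to pseudogenes with none. Hbq1b had 1281 and 1961 reads on intron 1 (chr11:32187108-32187202) and 1050 and 1537 on intron 2 (chr11:32187408-32187513). Its near-copy Hbq1a had 114 and 172 reads on intron 1 (chr11:32200213-32200307) and 71 and 106 on intron 2 (chr11:32200513-32200618), although its exon 2 is identical to that of Hbq1b. Hbb-bh2 had 3 and 6 reads on intron 1 and 2 and 5 on intron 2. The list holds no annotated junction of Hbb-bh3 or Hbb-bh0. A junction of a longer Hbb-bs transcript (chr7:110976401-110976525, upstream of the usual exon 1 end) had 201 and 236 reads, and that of another Hba-x transcript had 5 and 8.

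The second intron carried more reads than the first in 7 of the 10 genes with both introns listed. The ratio of intron 2 to intron 1 reads was highest for Hbb-y, at 3.84 in R1 (interval 3.69 to 3.99) and 3.36 in R2 (3.23 to 3.49). It was 2.12 ± 0.0537 for Hba-a1, 1.96 ± 0.0399 for Hba-a2, 1.92 ± 0.0760 for Hbb-bs and 1.24 ± 0.0388 for Hbb-bt (SD, n = 2). Hbb-bh1 had 1.62 ± 0.0321 and Hba-x 1.47 ± 0.148. The ratio lay below 1 for Hbq1b (0.802 ± 0.0254), Hbq1a (0.620 ± 0.00462) and Hbb-bh2 (0.750 ± 0.118). Fisher's exact test of intron by library passed an adjusted p of 0.05 in 5 of the 10 genes, all adult genes and Hbb-y. They were also the 5 most-read, and the genes of an adult pair may share reads, so they are not separate results. The ratio in R2 divided by that in R1 was 0.8668 in Hba-x, which did not pass, and 0.8745 in Hbb-y. Genes outside the loci were not tested in this way. The ratio of intron 2 to intron 1 was lower in R2 for Hba-a1, Hba-a2 and Hbb-y and higher in R2 for both adult beta genes. For Hbb-y the adjusted p was 2.74e-06 (Fisher's exact test). Counting all junctions at the annotated sites moved Hba-x from 1.47 to 8.53, Hbb-bh1 from 1.62 to 3.02, Hbb-bh2 from 0.750 to 15.7 and Hbq1a from 0.620 to 0.107. The joins between genes described next are among those added.

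Junctions from one adult gene into its neighbour had nearly the read numbers of the annotated splices. The donor of Hba-a1 intron 1 was joined to the exon 2 of Hba-a2 (chr11:32183802-32196740) by 2029993 reads in R1 and 2414144 in R2. These counts are 99.7% of those on intron 1 of Hba-a2 itself in each library. The donor of Hba-a1 intron 2 was joined to exon 3 of Hba-a2 (chr11:32184129-32197079) by 4051238 and 4683643 reads, 99.9% of the reads on intron 2 of Hba-a2 in R1. In the beta locus the donor of Hbb-bs intron 1 was joined to exon 2 of Hbb-bt (chr7:110962176-110976297) by 2207455 and 2612870 reads, and that of intron 2 to exon 3 of Hbb-bt (chr7:110961299-110975961) by 3256055 and 4049822. Each of these 4 junctions held at least 99.7% of the reads of the less-read annotated splice of its pair, and between 78.3% and 99.2% of those of the more-read one. No such junction can be listed from Hba-a2 to Hba-a1 or from Hbb-bt to Hbb-bs, since the acceptor would lie upstream of the donor.

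**Figure D1:**
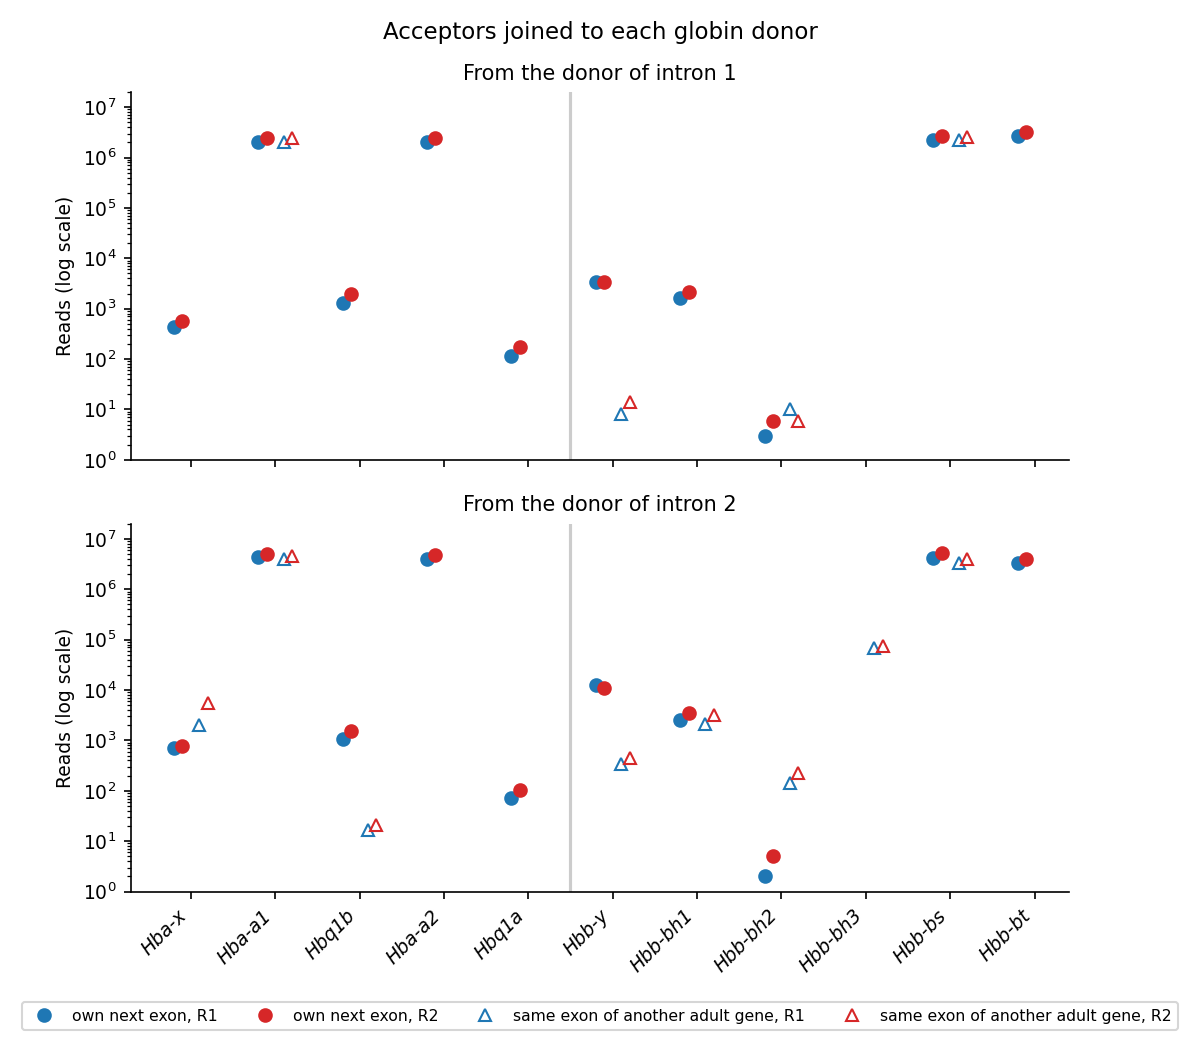
Reads from the annotated donor of intron 1 (top) and intron 2 (bottom) of each globin gene, on a log axis, for R1 (blue) and R2 (red). Filled circles are joins to the gene's own next exon and open triangles joins to an annotated acceptor of an adult gene other than itself; values of 0 are not drawn, and for Hba-x and Hbb-bh2 the triangles of intron 2 lie above the circles.

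Many jumps were listed at several places with equal read numbers. Whether the same reads were counted at each was not tested, since the list does not identify reads. Most members within and between the adult genes had both ends in exons, and such junctions can be described by the jump they make along the spliced mRNA. In the alpha pair 8652 exonic junctions came down to 5799 distinct jumps, of which 1300 were listed at all 3 possible placements: within Hba-a1, within Hba-a2 and from Hba-a1 to Hba-a2. The total read number was the same at all 3 placements for 960 of the 1300. In the beta pair 7542 junctions came down to 5372 jumps, 921 of them at 3 placements and 503 of those with equal reads. Summed over placements these junctions held 2.87 times the reads of the best placement of each jump in the alpha pair and 2.58 times in the beta pair. When each jump was counted once at its most-read placement, an alternative chosen after seeing the data, junctions joining 2 genes held 1.60% of the loci's reads instead of 32.0%.

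Few junctions between genes used annotated sites at both ends, but they held nearly all the reads. Of these there were 18 of 6245 junctions joining 2 genes in the alpha locus and 17 of 6188 in the beta locus, and they held 98.7% and 98.5% of the class's reads. No end lay at an annotated site for 96.2% and 97.0% of the junctions. The share of reads joining 2 genes was 32.8% in R1 and 32.9% in R2 in the alpha locus, and 31.2% and 31.1% in the beta locus. It did not pass between the libraries for both loci together (adjusted p = 0.274, Fisher's exact test), while the small differences of opposite sign did within the alpha locus (adjusted p = 5.59e-09) and the beta locus (adjusted p = 1.59e-06). These p-values compare 1 library with 1 library, cover counting error only and take placements of the same jump as independent reads, so they are too small if a read was counted at several placements.

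Donors of the embryonic and minor genes were also joined to adult acceptors, almost only at exon 3. From the donor of Hba-x intron 2, 1073 reads in R1 and 2870 in R2 led to exon 3 of Hba-a1 (chr11:32177774-32184262), and 988 and 2576 to exon 3 of Hba-a2 (chr11:32177774-32197079). With its own exon 3 that donor had 696 and 763 reads. Of the reads from that donor to its own or an adult exon 3, 74.8% in R1 (interval 73.1 to 76.4) and 87.7% in R2 (86.9 to 88.5) went to the adult genes. From the donor of Hba-x intron 1 no read was listed into an adult exon 2, against 442 and 559 into its own, which allows a share of up to 0.831% and 0.658% by the same exact interval. The adult joins of Hba-x were counted at both adult genes, so a read may stand in their sum more than once.

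Joins from Hbb-bh1 and Hbb-y into adult genes were also mostly at exon 3. The donor of Hbb-bh1 intron 2 was joined to exon 3 of Hbb-bs (chr7:110975308-110991204) by 1141 and 1788 reads and to that of Hbb-bt (chr7:110961299-110991204) by 949 and 1430. Together these made 44.7% of its reads in R1 and 47.6% in R2, and none was listed from its intron 1 donor. As for Hba-x, the sum over 2 near-identical acceptors may count a read more than once, which would make these shares, and those of Hbb-y and Hbb-bh2, too high. Hbb-y was joined to adult exon 3 by 341 and 452 reads, 2.61% and 3.88% of those from its donor. From its intron 1 donor, 8 and 14 reads led to annotated adult acceptors. Hbb-bh2, whose own intron 2 had 2 and 5 reads, was joined from that intron's donor to annotated adult acceptors by 144 and 229. From its intron 1 donor, 10 and 6 reads led to such acceptors. Those 10 and 6 reads stand beside 3 and 6 on its own intron 1, so at this depth its first donor too was joined to adult genes about as often as to its own exon 2 or more. Among the theta genes, the donor of Hbq1b intron 2 was joined to 2 annotated acceptors of Hba-a2 by 17 and 21 reads together. These joins to adult acceptors, apart from those the rule for the 6 most-read junctions names, were chosen after their values were seen.

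The most-read joins of this kind came from a gene with no annotated junction listed. The end of exon 2 of the pseudogene Hbb-bh3, as drawn in the mm9 table, was joined to exon 3 of Hbb-bs (chr7:110975308-110981973) by 48466 reads in R1 and 55957 in R2. It was joined to exon 3 of Hbb-bt (chr7:110961299-110981973) by 19967 and 20422. Both ends lie at annotated sites and carry flag C = 1. The mm10 tables list Hbb-bh3 at 0 TPM in both libraries. Hbq1b was joined to exon 2 of its copy Hbq1a by 1187 and 1837 reads (chr11:32187108-32200307), close to the 1281 and 1961 reads of its own intron 1, but to exon 3 of Hbq1a by only 64 and 99. Exon 2 of the theta genes is identical over all 205 bases, and exon 3 over its first 9.

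Between the adult genes, most reads on other junctions, though not most of the junctions, joined positions close to each other in the mRNA. A junction from Hba-a1 to Hba-a2 that skips 2 mRNA bases leaves one copy and continues 2 bases further on in the other. Of 5445 exonic junctions from Hba-a1 to Hba-a2, the 2 annotated splice pairs apart, 1554 made a jump within 10 bases either way and held 63.5% of the reads. From Hbb-bs to Hbb-bt 1410 of 4484 did so, with 75.2% of the reads. Jumps that repeat 31 or more bases were more numerous, with 2178 and 1609 junctions, but held 36000 and 17354 reads. In the alpha pair a skip of 2 bases was the most frequent single size, with 350 junctions and 46827 reads, then 1 base repeated with 262 junctions and 16475 reads, and a skip of 3 bases with 255 junctions and 23076 reads. A skip of 1 base was seen in only 4. The beta pair had the same 3 peaks, with 311 junctions and 53420 reads for a skip of 2, 237 and 10429 for 1 repeated, and 234 and 21244 for a skip of 3, beside 19 for a skip of 1, which held 18376 reads. No gap shorter than 31 nucleotides is listed anywhere in the file, so a skip this small inside an exon can appear only as a junction between copies or across an intron.

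**Figure D2:**
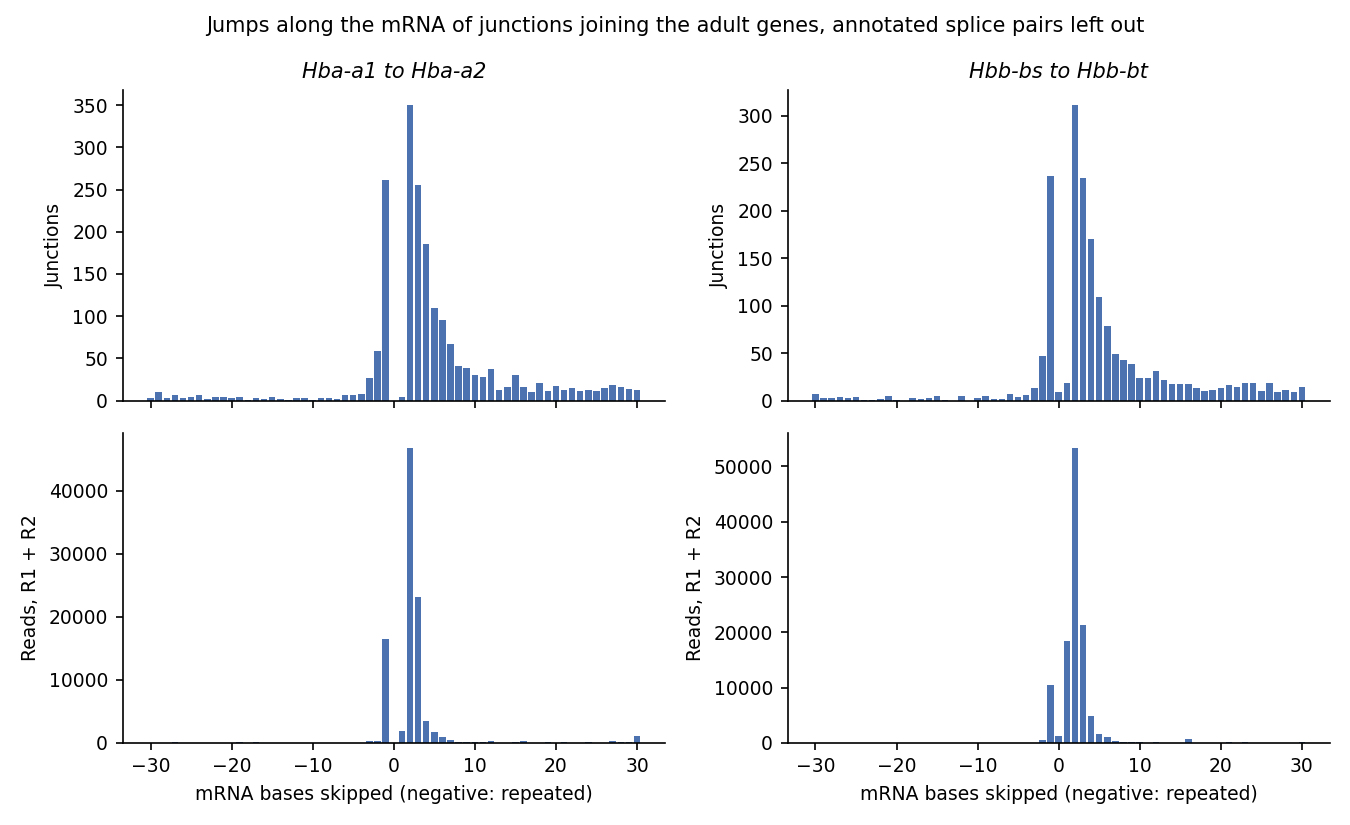
Junctions (top) and reads of R1 and R2 summed (bottom) by the number of mRNA bases skipped, for exonic junctions from Hba-a1 to Hba-a2 (left) and from Hbb-bs to Hbb-bt (right), the annotated splice pairs left out. The numbers of junctions peak at 1 base repeated and at 2 and 3 bases skipped in both pairs and are low at 0 and 1, while in reads the skip of 1 also stands out in the beta pair, at 18376.

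The most-read of these near-adjacent joins lay in different exons. From Hba-a1 to Hba-a2 the leader (chr11:32183729-32196544) repeats 1 base in exon 1 and had 3361 reads in R1 and 4056 in R2. A join in exon 3 that skips 3 bases (chr11:32184278-32197097) had 2139 and 2122. From Hbb-bs to Hbb-bt a join in exon 2 that skips 2 bases (chr7:110962069-110976079) had 3341 and 4224. Beside them stood junctions whose ends are moved by 1 to 3 bases from an annotated intron, with a gap 1 base longer than the intron itself. In Hba-a1 the gap chr11:32183803-32183925, against the annotated 32183802-32183923, had 2531 and 3059 reads, and chr11:32183799-32183921 had 1331 and 1736. In Hbb-bs chr7:110975305-110975959 had 2569 and 3072, and in Hbb-bt chr7:110962178-110962294 had 2510 and 2877. All the junctions of this paragraph carry flag C = 0.

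Other splice sites with GT and AG were used at low rates, and the most-read lay in exon 1 of the adult beta genes. It is a donor 38 bases before the end of exon 1, and the capitals below mark the last 38 bases of exon 1, the part such a splice leaves out, between the exon's preceding bases and the start of exon 2. The embryonic genes are set beside the adult ones because all 4 have GT at this place.
Hbb-bs: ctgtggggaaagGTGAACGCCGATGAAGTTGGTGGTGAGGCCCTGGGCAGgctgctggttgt
Hbb-bt: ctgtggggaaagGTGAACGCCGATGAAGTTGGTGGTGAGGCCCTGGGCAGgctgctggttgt
Hbb-bh1: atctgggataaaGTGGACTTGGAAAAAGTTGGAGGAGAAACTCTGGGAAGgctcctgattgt
Hbb-y: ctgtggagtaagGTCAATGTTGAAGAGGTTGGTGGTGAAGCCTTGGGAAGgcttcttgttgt
In Hbb-bs this donor (chr7:110976185-110976335) had 3371 reads in R1 and 4407 in R2, 0.152% (interval 0.147 to 0.157) and 0.168% (0.163 to 0.173) of the sum with the annotated splice. In Hbb-bt (chr7:110962176-110962329) it had 2835 and 3667 reads, 0.105% and 0.114%. The same donor of Hbb-bs joined to exon 2 of Hbb-bt had 3365 and 4393. A donor 16 bases before the exon end had 282 and 412 reads in Hbb-bs and 310 and 434 in Hbb-bt, and one 12 bases into the intron had 87 and 143, and 118 and 201. With flag C = 1, other donors were joined to annotated acceptors of either intron by 4 reads in Hbb-y and none in Hbb-bh1. Their annotated first introns had 6655 and 3765 reads.

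In the adult alpha genes the most-read other site was an acceptor. In Hba-a1 the annotated donor of intron 1 was joined 70 bases inside exon 2 (chr11:32183802-32183993) by 908 reads in R1 and 878 in R2, 0.0443% and 0.0361% of the sum with the annotated splice. In Hba-a2 (chr11:32196619-32196810) it was joined by 858 and 839. Hbq1b had an acceptor 35 bases inside exon 3 (chr11:32187408-32187548) with 28 and 50 reads, 2.60% (interval 1.73 to 3.73) and 3.15% (2.35 to 4.13). Exon 2 was skipped, with exon 1 joined to exon 3, in 200 and 186 reads of Hbb-bs (chr7:110975308-110976297) and 160 and 145 of Hbb-bt (chr7:110961299-110962291). In the alpha genes it was skipped in 0 and 1 reads of Hba-a1 and 1 and 1 of Hba-a2, beside 4483095 and 4457367 reads on their first introns.

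Inside intron 2 of both adult beta genes the junctions bounded a segment of 51 bases as an extra exon would be. In Hbb-bs the end of exon 2 was joined to chr7:110975809 (gap chr7:110975810-110975961) by 903 reads in R1 and 1473 in R2. A donor at chr7:110975759 was joined to exon 3 (gap chr7:110975308-110975758) by 950 and 1227. In Hbb-bt the matching gaps, chr7:110961801-110961952 and chr7:110961299-110961749, had 592 and 880 reads, and 714 and 907. All 4 carry flag C = 1, and each held between 0.0181% and 0.0285% of the sum with the annotated splice. The list does not say whether single reads cross both gaps. These segments and the sites of the preceding paragraphs beyond the 3 most-read junctions of each gene were chosen after their values were seen.

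Other gaps lay within a single exon, most of them without splice-site letters. The most-read non-annotated junction of Hbb-bs is a gap of 64 bases in exon 3 (mm9 chr7:110975213-110975276), with 6849 reads in R1 and 9510 in R2, and its match in Hbb-bt (chr7:110961204-110961267) had 2392 and 3306. The exon sequence around the gap is shown because this is the most-read such gap of the loci. The skipped bases are in capitals, from the minus strand of GRCm38 chr7:103826679-103826782 for Hbb-bs and chr7:103812670-103812773 for Hbb-bt.
Hbb-bs: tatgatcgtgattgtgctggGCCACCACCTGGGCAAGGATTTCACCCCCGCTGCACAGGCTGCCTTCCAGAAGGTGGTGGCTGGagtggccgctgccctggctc
Hbb-bt: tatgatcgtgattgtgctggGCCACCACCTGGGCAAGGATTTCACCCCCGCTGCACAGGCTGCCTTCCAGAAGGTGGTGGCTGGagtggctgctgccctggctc
The gap can slide over 5 bases without changing the joined sequence, since the same bases stand at both of its ends. A gap of 61 bases in exon 1 of Hba-a1 (chr11:32183705-32183765), with 1543 and 2222 reads, has such a repeat of 10 bases, and so has its match in Hba-a2 (chr11:32196522-32196582), with 1530 and 2222 reads. A gap of 66 bases in exon 3 of Hbb-bs (chr7:110975224-110975289) does carry flag C = 1 and had 2053 and 1904 reads.

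Repeats of at least 5 bases were common at well-read gaps of this kind in the alpha genes, less common in the beta genes, and rare at others. Among gaps inside 1 exon of Hba-a1 with flag C = 0, 8 of 11 with at least 100 reads had one, against 1.45% of the 276 with a single read and 0.896% of all 63427 gaps of at least 31 bases that the exons allow. In Hba-a2, which shares the sequence, the counts were 8 of 11, 1.18% and 0.985%. In Hbb-bs 3 of 11 had one, against 0.840% and 0.523%, and in Hbb-bt 1 of 5, against 2.54% and 0.578%. By reads, such gaps held 72.4% of the exonic C = 0 reads in Hba-a1, 66.9% in Hbb-bs and 76.2% in Hbb-bt. In the beta genes most of this was the gap of 64 bases. It held 16359 of 25564 such reads in Hbb-bs and 5698 of 7769 in Hbb-bt. None of the exonic gaps with flag C = 1 in these genes had a repeat of 5 bases.

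**Figure D3:**
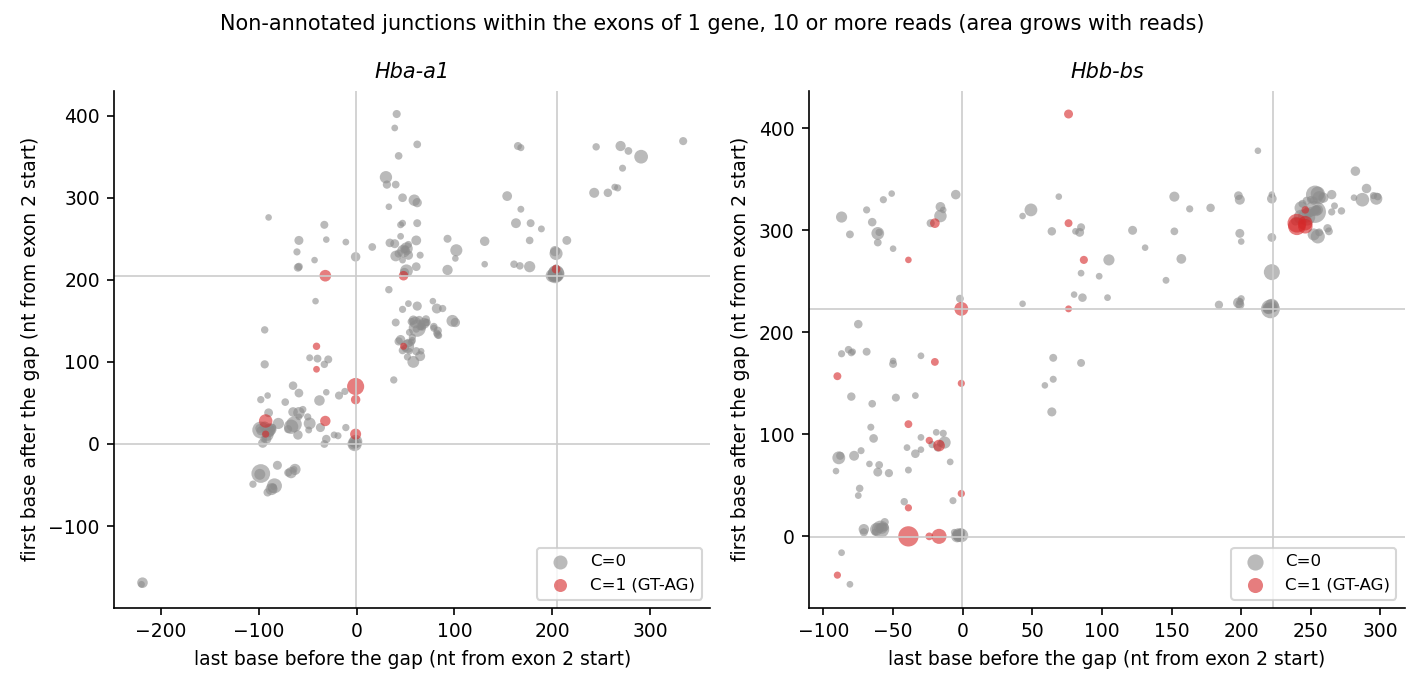
Non-annotated junctions within the exons of Hba-a1 (left) and Hbb-bs (right) with at least 10 reads, by the last mRNA base before the gap (x) and the first after it (y), in nucleotides from the start of exon 2; grey lines mark the exon borders, red points have flag C = 1 and point area grows with reads. The donor 38 bases before the end of exon 1 is the large red point at the left of the Hbb-bs panel, and the gap of 64 bases is the large grey point in its exon 3.

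Embryonic and theta genes had few other junctions of their own. Hba-x had 7 non-annotated junctions, the most-read with 4 reads in R1 and 2 in R2, and Hbq1a had 3, with at most 3 reads. Hbb-bh1 had 24, of at most 4 reads, and Hbb-y had 47, led by chr7:111000513-111001258 with 6 and 8 reads. Hbb-bh2 had none beside 16 annotated reads.

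Some junctions led from sites outside every annotated gene into the adult genes. In the alpha locus the donor of Hbq1b intron 2 was joined to chr11:32194957 (gap chr11:32187408-32194956) by 478 reads in R1 and 803 in R2. From chr11:32195077, a donor 121 bases into the segment that begins there, 145 and 267 reads led into exon 1 of Hba-a2 (gap chr11:32195078-32196508). The same segment was also entered from chr11:32194836, in 59 and 97 reads (gap chr11:32194837-32194956). In all, 567 and 947 reads entered the segment chr11:32194957-32195077 and 165 and 300 left it, over junctions with at least 50 reads. The mm9 gene table has no gene there, and all of these carry flag C = 1. In the beta locus a donor at chr7:110964207, upstream of Hbb-bt, was joined into exon 1 of Hbb-bt (gap chr7:110962395-110964206) by 85 and 142 reads and to its exon 2 (gap chr7:110962176-110964206) by 15 and 34. A gap with flag C = 0 from Hbb-bt to a place downstream of it (chr7:110960654-110962290) had 13 and 42 reads.

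Junctions on the opposite strand were scarce, with 137 junctions and 271 reads. The most-read of them lies in Hbq1b (chr11:32187054-32187429, flag C = 1), with 22 reads in R1 and 44 in R2. Of the members with reads in 1 library only, the leaders in the alpha locus were joins from Hba-a1 to Hba-a2, chr11:32184381-32197178 with 37 reads in R1 and none in R2, and chr11:32183949-32196571 with 30 in R2 and none in R1. In the beta locus they were chr7:110962005-110962310 within Hbb-bt and chr7:110962005-110976316 from Hbb-bs to Hbb-bt, with 20 reads in R1 and none in R2 each; both leave out the same mRNA bases.

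Relative to all junction reads the libraries differed in many members, more often with a lower share in R2, although R2 had more reads on the members in all (43881449 against 36781951 in R1). For each junction with at least 10 reads an exact binomial test (two-sided) asked whether its reads split between R1 and R2 as all junction reads did, with Benjamini-Hochberg adjustment over all 178166 such junctions of the list. Of 3429 members tested, 590 passed an adjusted p of 0.05, which is 17.2%, against 21.6% of all junctions tested. Lower in R2 were 416 members, 12.1%, against 2.98% of all junctions, and higher in R2 were 174, 5.07%, against 18.7%. The median log2 ratio of R2 to R1, over junctions read in both, was -0.13 in the members and 0.21 over all junctions tested, so a log2 ratio of 0 here does not mark the centre of the list. With scaling by reads outside the loci 531 members (15.5%) were lower in R2 and 75 (2.19%) higher, against 5.82% and 6.0% of all junctions tested. With scaling by the median ratio 563 (16.4%) were lower and 56 (1.63%) higher, against 6.78% and 4.71%. The test takes counting error alone, compares these libraries and not conditions, and takes counts at several placements as independent.

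All 11 annotated junctions that passed, of 20 tested, were lower in R2. Hbb-y had the lowest ratio, with a log2 ratio of -0.68 (interval -0.72 to -0.65) on intron 2 and -0.49 (-0.56 to -0.42) on intron 1. On the 8 splices of the adult genes it ran from -0.30 on Hba-a1 intron 2 to -0.18 on Hbb-bs intron 2, and on Hba-x intron 2 it was -0.37 (-0.52 to -0.22). Hba-x intron 1, Hbb-bh1, Hbq1a and Hbq1b did not pass, with log2 ratios of -0.16 for the first, -0.08 and -0.04 for Hbb-bh1 introns 1 and 2, and 0.11 and 0.05 for those of Hbq1b. With scaling by reads outside the loci Hba-x intron 1 (-0.34, adjusted p = 0.00471, exact binomial test) and Hbb-bh1 introns 1 and 2 (-0.26 and -0.22, adjusted p = 2.36e-06 and 2.33e-07) passed as lower in R2, and they did with scaling by the median ratio. Under both of these scalings the ratios of Hbq1b were below 0 and did not pass. The joins from Hba-x to adult exon 3 went the other way. Their log2 ratios were 0.92 (interval 0.82 to 1.02, adjusted p = 6.52e-74) to Hba-a1 and 0.88 (0.78 to 0.99, adjusted p = 7.06e-62) to Hba-a2, by the exact binomial test. The joins from Hbb-bh3 had -0.29 (-0.31 to -0.28) to Hbb-bs and -0.47 (-0.50 to -0.44) to Hbb-bt. The junction from Hbb-bh1 to Hbb-bs had 0.15 (0.04 to 0.26), which passed (adjusted p = 0.0363, exact binomial test), but it was -0.03 with scaling by reads outside the loci. The join from Hbq1b to the unannotated segment had 0.25 (0.08 to 0.41, adjusted p = 0.0187, exact binomial test), but 0.07 (adjusted p = 0.716) with scaling by reads outside the loci and 0.04 (adjusted p = 0.907) with scaling by the median ratio.

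**Figure D4:**
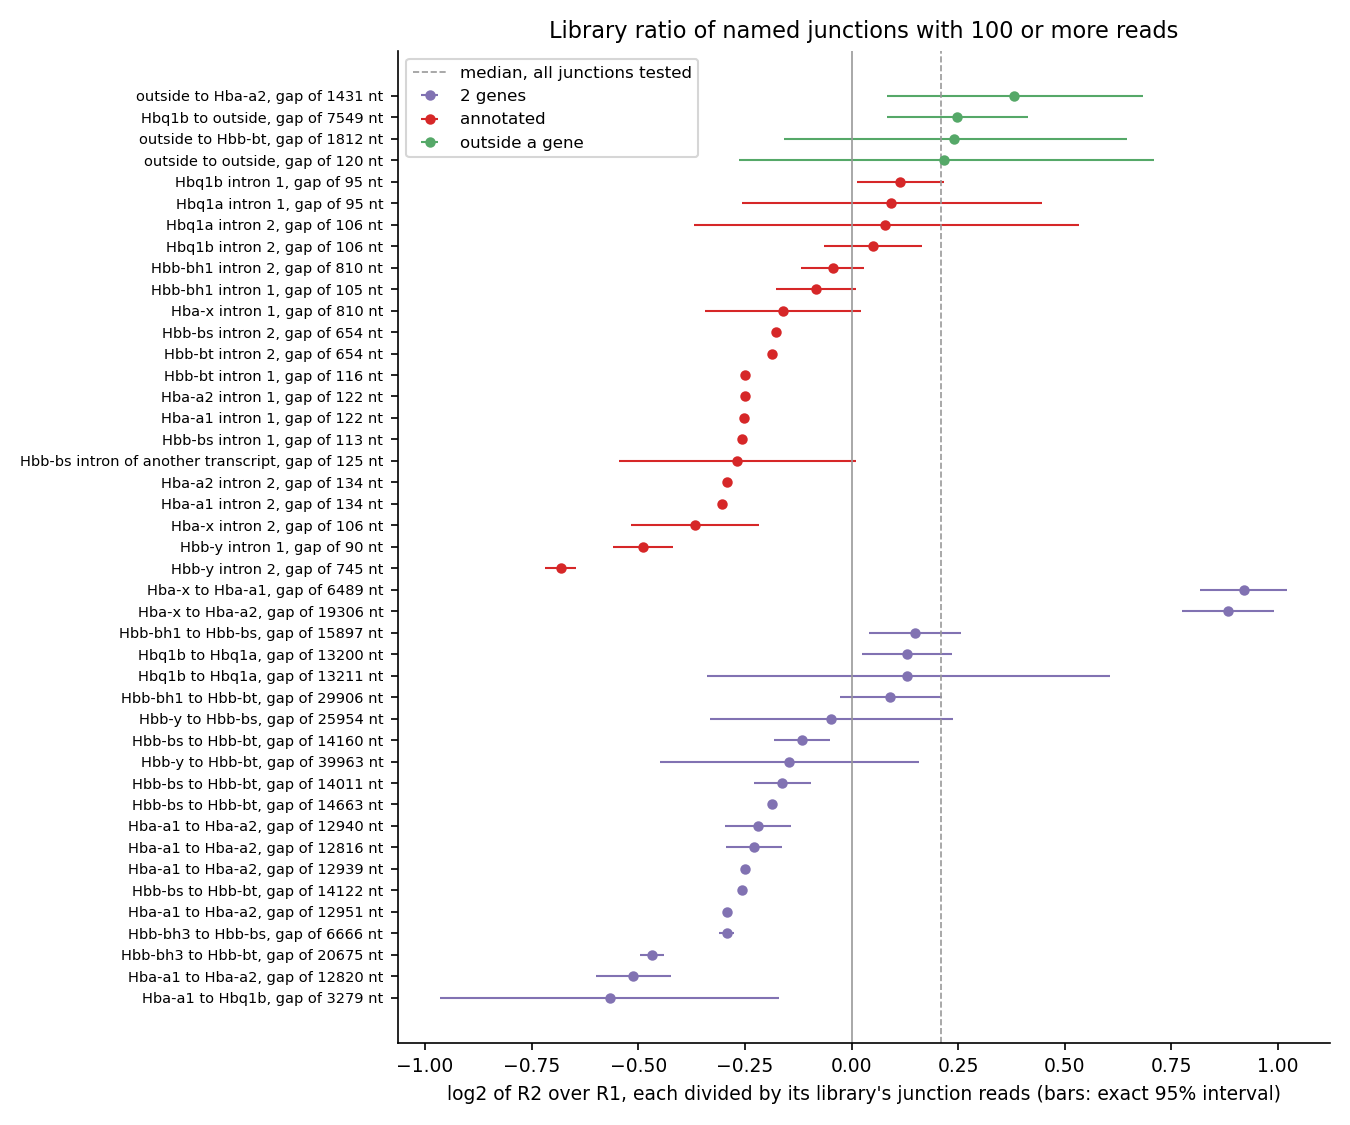
Log2 ratio of R2 to R1, each divided by its library's junction reads, for named annotated junctions (red), junctions joining 2 genes (purple) and junctions with an end outside the genes (green) of at least 100 reads in all; bars are exact 95% intervals and the dashed line is the median of all junctions tested, 0.21. The joins from Hba-x to Hba-a1 and Hba-a2 stand at 0.92 and 0.88, to the right of all others drawn, and Hbb-y intron 2 at -0.68 to the left.

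Within single genes the non-annotated share of reads in the globins lay inside the range of the comparator genes, which differed widely in read number. Among genes with at least 1000 annotated reads it ran from 0.353% ± 0.0145 in Hba-a1 to 1.71% ± 0.0874 in Hbq1b (SD, n = 2), with a median of 0.427% over 8 globin genes. Over 17 comparator genes of liver and red cells it ran from 0.263% in Trf, the transferrin gene, to 3.48% in Ftl1, a ferritin chain, with a median of 0.670%. Ftl1 had only 6221 annotated reads. Alb, the albumin gene and the most-read comparator with 5671902 annotated reads, had 0.345% ± 0.0260, and Hba-a2 had 0.356% ± 0.0134. After Alb the most-read comparators were Afp, Trf and Eef1a1, with 0.317%, 0.263% and 0.3495%. All adult globin genes lay above these and above Alb, though Hba-a1 and Hba-a2 only slightly. Hbb-bs, with 0.633% ± 0.00826, was the highest of the adult globins. The share without splice-site letters had a median of 0.369% in the globin and 0.377% in the comparator genes. Hba-a1 had 1961 non-annotated junctions beside 2 annotated ones, and Alb 1486 beside 14. Hba-a1 also had more annotated reads, 13967979 against 5671902, and the numbers of junctions were not adjusted for this. Of the non-annotated junctions, 2.86% in Hba-a1 and 5.05% in Hbb-bs carried flag C = 1, against 8.35% in Alb. These are descriptions with no test between genes.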

How the data were processed

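The junction counts were deposited by the authors as whole numbers of reads per mm9 junction and replicate, with flags A (annotated) and C and a deposited score read as an irreproducibility value from its range; the aligner is not given in the sources used here. Gene and exon positions come from the deposited mm9 tables (ENSEMBL 65). The expected count and TPM values were made by the authors on mm10 with GENCODE M4, per the deposited file list; 42462 of 69691 features matched a symbol. Members and lists were chosen with earlier results of these data known. Named were the annotated junctions, the 3 most-read others per gene, the 6 most-read joining 2 genes, the 3 most-read with an end outside genes and the 2 most-read of 1 library per locus. Of 18 comparator genes, Ahsp had no match in the mm9 table. Sequences come from GENCODE M21 transcripts (GRCm38), anchored at exon borders. R1 and R2 were compared by the exact binomial test with Benjamini-Hochberg adjustment; other scalings, read minimums, an irreproducibility limit and single libraries were tried. The test was tested on simulated data. Junction coordinates give the first and last base of the gap, counted from 1. Tables were read with pandas 2.3.3 under Python 3.11.15, intervals and tests computed with scipy 1.17.1 on numpy 2.4.6, and plots drawn with matplotlib 3.10.9.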

Additional observations from a re-analysis of the deposited data

How the results depend on the processing

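No paired analysis was possible because there is 1 group. Members that differed between the libraries numbered 348 with no filter on reads, 339 with at least 50 reads and 345 at an adjusted p of 0.01, against 590. These were 1.65%, 27.3% and 10.1% of the members tested, against 2.33%, 30.95% and 13.7% of all junctions tested. With scaling by reads outside the loci 75 members were higher and 531 lower in R2. With scaling by the median ratio 56 were higher and 563 lower, against 174 and 416 in the main setting. The shares over all junctions are given above. The junction from Hbb-bh1 to Hbb-bs turned from a log2 ratio of 0.148 to -0.0297 and -0.0625 under these scalings. Of 47 named junctions, 210 values under alternatives kept their call, though some that did not pass changed sign. The call was lost with the same sign in 12 and gained in 9. In 2 more, both of the junction from Hbb-bh1 to Hbb-bs, the sign changed and the call was lost. The non-annotated share was 32.3% with at least 10 reads or an irreproducibility value of at most 0.1. The share joining 2 genes was 31.6% with ends only at annotated sites and 32.0% under those read filters. It was 1.60% with each jump counted once and ties placed within 1 gene. The number of such junctions was 12433, or 35 with ends at annotated sites, 2320 with at least 10 reads and 3134 at the irreproducibility limit. At that limit 4455 members had reads in both libraries. The embryonic share was 0.0581% from first introns and 0.0912% from second introns. With either library alone the shares ran from 32.3% to 32.3% for non-annotated reads, 32.0% to 32.0% for reads joining 2 genes, 0.0726% to 0.0858% for the embryonic genes and 38.4% to 45.5% for the loci, and 8407 to 8428 junctions joined 2 genes. Counting each jump once and leaving out a library for that count were chosen after seeing the data. The cause of these changes was not tested. The binomial test needs both libraries.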
